A study of Mus musculus with 6 samples.

Results

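The genes described here are used as markers of progenitors in the embryonic brain, and some, such as Vim, are also made by other cells. They are 30 genes chosen by symbol from a list, 24 of radial glia and 6 of intermediate progenitors, out of 52459 gene symbols in the count table. All 30 were among the 19565 genes that passed the low-count filter, and none was lost to it. The libraries came from whole brains of C57BL/6 mouse embryos at E14.5. In 3 of them the labels give Mfsd7c-/- (knockout), and in 3 they give wild type. No treatment is named. The sources used here give neither the deleted part of Mfsd7c nor litters. The p-values therefore measure only the spread between these 6 samples. The comparison addressed whether loss of Mfsd7c, a membrane transporter gene now called Flvcr2, goes with a different level of progenitor transcripts.

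Radial glia are the neural stem cells of the developing brain. They line the ventricle, send a fibre to the outer surface, and divide either to renew themselves or to give rise to neurons, in the cortex often through intermediate progenitors. Notch signalling holds cells in the radial glial state: a ligand on one cell activates a Notch receptor on its neighbour, the freed intracellular part joins the DNA-binding protein RBPJ, and Hes repressors are made that keep proneural genes such as Neurog2 off. Cells that escape this repression switch on Eomes and leave the ventricular surface. In whole-tissue RNA, fewer cells of a type and less RNA per cell cannot be told apart.

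The upstream sequences shown are those of the Notch target Hes5 and of Lfng, which encodes a glycosyltransferase that modifies Notch receptors. They are shown because each held a pair of matches to the RBPJ core motif TGGGAA, on opposite strands, in the 250 bases before the RefSeq start site. Sequences are from RefSeq on GRCm38.p6, read 5′ to 3′ on the strand of the gene, with the motif or its reverse complement in capitals. Hes5 is at chr4:154960673-154960922 and Lfng at chr5:140607091-140607340, both on the plus strand.
Hes5: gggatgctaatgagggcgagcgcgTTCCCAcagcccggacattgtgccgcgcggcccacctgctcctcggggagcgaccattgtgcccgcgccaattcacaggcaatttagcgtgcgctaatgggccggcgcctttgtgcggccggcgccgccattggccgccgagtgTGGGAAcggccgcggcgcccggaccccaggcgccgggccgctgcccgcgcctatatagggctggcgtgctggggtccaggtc
Lfng: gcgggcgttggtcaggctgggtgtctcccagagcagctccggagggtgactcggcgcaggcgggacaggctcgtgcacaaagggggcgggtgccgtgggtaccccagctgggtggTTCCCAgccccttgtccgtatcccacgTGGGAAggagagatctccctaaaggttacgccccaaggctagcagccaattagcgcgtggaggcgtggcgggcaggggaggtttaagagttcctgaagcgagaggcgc

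Of the members, 26 were matched to a RefSeq start site. Sox9, Hes1, Sox3 and Insm1 had no window and were not searched. The motif, searched on both strands, lay in 9 of 26 windows of the radial glia genes (8 of 21 genes) and in 0 of 6 windows of the intermediate progenitor genes (5 genes). It lay in 21.6% of all 32851 windows of that length. A match describes the letters and does not show that RBPJ binds there.

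Library totals ran from 43784619 to 50549673 counts. Mfsd7c itself had 119, 129 and 130 counts in the knockout libraries, in order of replicate number, and 206, 291 and 259 in wild type (log2 fold change -0.96, SE 0.147, adjusted p = 0.0271 in edgeR). That call was lost when any single library other than wild-type replicate 1 was left out (adjusted p = 0.109 to 0.189). Several libraries stood apart from others of their group. A set of 12 caudal Hox genes summed to 149 and 43.4 CPM in wild-type replicates 2 and 3 and to 0.591 to 4.35 CPM elsewhere, and 8 epidermal genes summed to 505 CPM in knockout replicate 1 and 429 CPM in wild-type replicate 1 against 23.7 to 93.6 CPM elsewhere. Wild-type replicate 2 was the one library with abundant Xist (82198 counts against 6 to 27). The count of members called is therefore also given below without any single library and without both replicates numbered 1. Leaving out wild-type replicates 2 and 3 together leaves a lone wild-type sample, a limit on every value from that setting. CPM is a gene's count per 1000000 counts of the TMM-scaled library total.

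None of the progenitor genes passed the test between genotypes, and their fitted differences were small, with log2 fold changes from -0.26 to 0.26. In edgeR's quasi-likelihood test 0 of the 30 members passed an FDR of 0.05, in a comparison that called 0.659% of all tested genes. At an unadjusted p under 0.05 there were 6 members, all radial glia genes, against 8.09% of all tested genes. DESeq2 called 0 members, with 7 at an unadjusted p under 0.05, and the authors' deposited table likewise has 0 past an adjusted p of 0.05. The count stayed at 0 without any single library and without both replicates numbered 1. It was 1, Sox9, with a term that parts libraries by the embryonic share of their beta-globin counts (edgeR adjusted p = 0.0253).

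The intervals show how large a difference the data leave room for. The 95% interval of the fold change lay wholly within 1.5-fold in either direction for 29 of 30 members and within 1.25-fold for 13, all of them radial glia genes. Over all 19565 genes tested, 12414 lay within 1.5-fold and 7762 within 1.25-fold. The intermediate progenitor genes had wider intervals, with a median SE of 0.156 against 0.0780 for the radial glia genes. Hopx, a homeodomain-only protein gene used as a marker of outer radial glia, was the exception to the 1.5-fold bound, with a log2 interval from -0.60 to 0.08 around -0.26. Each interval is for 1 gene on its own. The median log2 fold change was 0.03 over the radial glia genes and 0.04 over the intermediate progenitor genes, against -0.01 over all genes tested. Of the 30, 20 lay above 0, where 47.4% of all tested genes did.

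**Figure D1:**
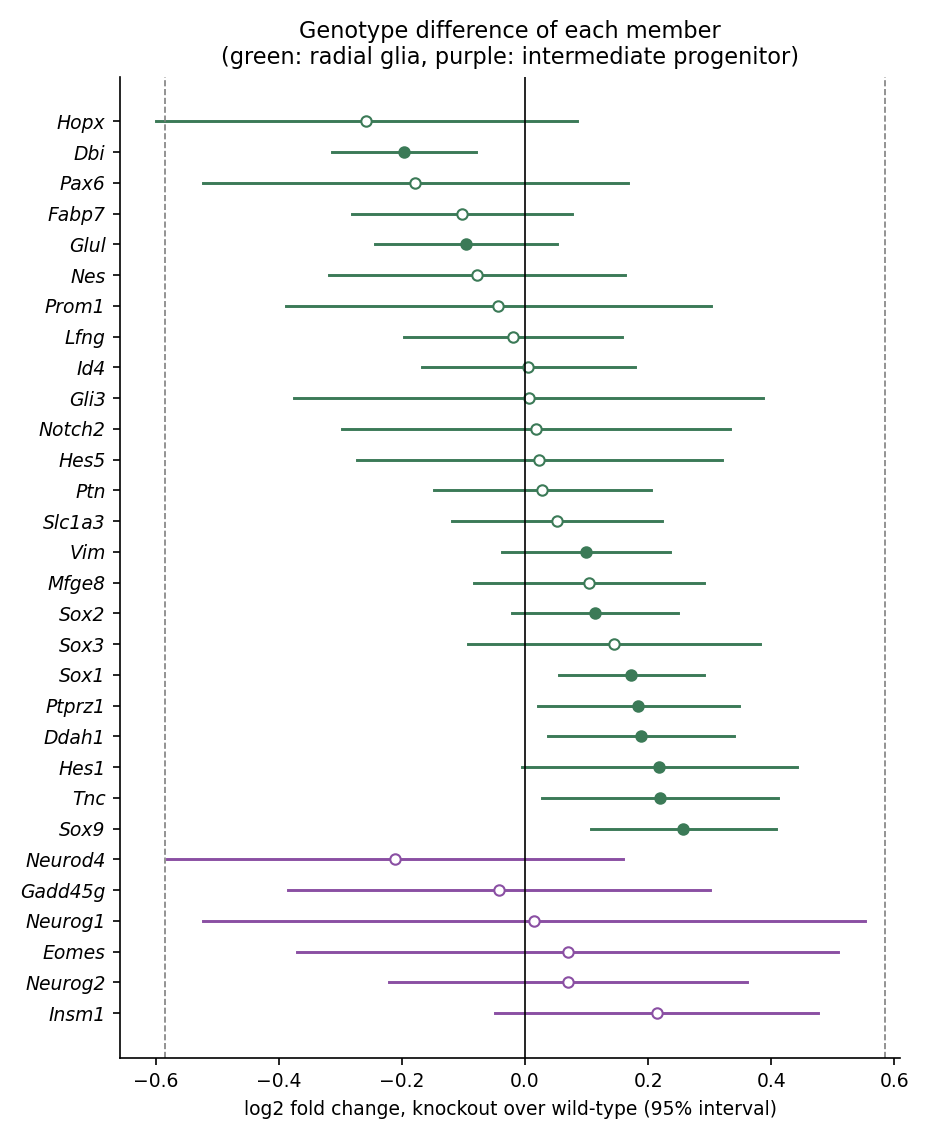
The log2 fold change of each member, knockout over wild-type, with its 95% interval as a bar. Filled points are members whose 3 knockout values do not overlap the 3 wild-type values, and dashed lines mark 1.5-fold. The bar of Hopx is the one that crosses a dashed line, and 10 points are filled, all of them radial glia genes.

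In 10 members the knockout and wild-type values did not overlap, all of them radial glia genes, and 8 of the 10 were higher in knockout. Over all genes tested 14.4% showed no overlap. The differences were small: the 10 log2 fold changes ran from -0.20 to 0.26. They are described below by what the gene products do.

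Sox9, a transcription factor needed for neural stem cell upkeep and later for glia, had the lowest adjusted p of the members. It lies on chromosome 11 from 112782224 to 112787760 (GRCm38). Its level was 79.8, 84.5 and 86.2 CPM in knockout and 64.2, 73.5 and 71.8 CPM in wild-type brains, in order of replicate number as in all values below. Each knockout library was above each wild-type library, and wild-type replicate 1 was the lowest. Knockout averaged 83.5 ± 3.35 and wild type 69.8 ± 4.93 CPM (SD, n = 3), and the log2 fold change was 0.26 (SE 0.0659, adjusted p = 0.243 in edgeR). Over 13 alternative settings the adjusted p ran from 0.0253 with the beta-globin term to 0.863 without knockout replicate 3.

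The SoxB1 genes Sox1, Sox2 and Sox3 encode closely related factors that keep neural progenitors undifferentiated. Sox1, on chromosome 8 from 12395295 to 12400126, was at 90.5, 95.4 and 90.9 CPM in knockout and 83.9, 82.7 and 78.9 CPM in wild-type brains (log2 fold change 0.17, SE 0.0518, edgeR adjusted p = 0.360). Its groups did not overlap and were tight, with SDs of 2.70 and 2.63 CPM (n = 3). Sox2 was at 152, 155 and 166 CPM in knockout and 149.7, 139 and 148 CPM in wild-type brains (log2 fold change 0.11, SE 0.0589, edgeR adjusted p = 0.684). The Sox2 groups did not overlap, but knockout replicate 1 and wild-type replicate 1 lay close together. Sox3, the X-linked member, overlapped, with 36.3 ± 1.87 CPM in knockout and 32.8 ± 4.75 CPM in wild-type brains (SD, n = 3, log2 fold change 0.14). All 3 lay above 0 under each of the 13 alternative settings, and none passed the threshold in any of them.

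Pax6 specifies dorsal forebrain progenitors, and Gli3 encodes a transcription factor of the hedgehog pathway that patterns the same tissue. Pax6 was at 59.7, 76.7 and 62.6 CPM in knockout and 59.9, 77.0 and 88.2 CPM in wild-type brains. Its low and high libraries were found in both groups, and the log2 fold change was -0.18 (SE 0.149) with a 95% interval from -0.52 to 0.17. It was 0.15 without wild-type replicates 2 and 3, which leaves a lone wild-type sample. Gli3 ranged from 44.4 CPM in wild-type replicate 1 to 70.6 CPM in wild-type replicate 3, while the group means were 60.1 and 59.9 CPM. The spread of Gli3 among wild-type brains (SD 13.7 CPM, n = 3) exceeded the difference between genotypes, whose log2 value of 0.01 was -0.071 with knockout replicate 2 left out and -0.17 with wild-type replicate 1 left out.

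Among the Notch genes, the groups of Hes1 did not overlap and those of Hes5 did. Hes1 was at 20.7, 24.3 and 20.7 CPM in knockout and 17.1, 19.7 and 19.6 CPM in wild-type brains (log2 fold change 0.22, SE 0.0978, edgeR adjusted p = 0.632). Hes5, whose promoter is printed above, was at 17.9, 24.5 and 22.5 CPM in knockout and 18.6, 22.0 and 23.2 CPM in wild-type brains, and its fitted log2 fold change of 0.02 (SE 0.130) was -0.075, -0.0054 and -0.063 without knockout replicate 2, knockout replicate 3 and wild-type replicate 1. The difference between the 2 genes was not tested. The receptor gene Notch2 had 109.6 ± 14.8 CPM in knockout and 108 ± 17.8 CPM in wild-type brains (SD, n = 3, log2 fold change 0.02), and Lfng 35.9 ± 2.79 and 36.4 ± 1.72 CPM (log2 fold change -0.02). Both signs turned when 1 library was left out, to -0.094 and -0.11 for Notch2 without knockout replicate 2 or wild-type replicate 1, and to 0.027 and 0.0058 for Lfng without knockout replicate 1 or wild-type replicate 2. Id4, an inhibitor of bHLH factors, had 293 ± 20.1 and 292 ± 19.8 CPM (log2 fold change 0.01), and -0.050 and -0.045 on the log2 scale without knockout replicate 3 or wild-type replicate 2.

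Of the genes for the filaments and membranes of radial glia, Vim was the one whose groups did not overlap. Vim, the intermediate filament vimentin, which endothelium and fibroblasts also make, was at 696, 668 and 668 CPM in knockout and 615, 630.1 and 651 CPM in wild-type brains (log2 fold change 0.10, SE 0.0599, edgeR adjusted p = 0.728). Each knockout value was above each wild-type value. The 8 endothelial genes summed to 315 to 349 CPM in knockout and 263 to 322 CPM in wild-type libraries, with Pecam1 (log2 fold change 1.00, edgeR adjusted p = 0.0012) and Emcn (0.79, adjusted p = 0.0215) higher and Cldn5 (-0.50, adjusted p = 0.0084) lower in knockout. The 8 mural genes summed to 127 to 137 CPM in knockout and 186 to 207 CPM in wild-type libraries. Most of that gap lay in Rgs5, at a mean of 39.3 CPM in knockout and 95.5 CPM in wild type. Rgs5 was lower in knockout (-1.28, edgeR adjusted p = 0.00094), no other mural gene passed, and 2 of the 8 lay above 0. Over all genes tested, 0.659% passed the edgeR test. The 8 meningeal fibroblast genes summed to 1015.5 to 1264 and 859.9 to 1724 CPM. The part of these cells in the Vim values was not tested. Nes, the intermediate filament nestin, was at 315, 371 and 291 CPM in knockout and 305, 359 and 368 CPM in wild-type brains and overlapped (log2 fold change -0.08, SE 0.106). Fabp7, a fatty acid binding protein of radial glia, was at 511, 539 and 584 CPM in knockout and 621, 592 and 541 CPM in wild-type brains, and also overlapped (log2 fold change -0.10, SE 0.0784). Prom1, an apical membrane protein, had 45.5 ± 5.18 and 46.8 ± 9.46 CPM (SD, n = 3), with a log2 fold change of -0.04 that turned to 0.038 with knockout replicate 1 left out, and to 0.035 or 0.052 with the second or the third wild-type library left out. Hopx had 8.31 ± 1.09 CPM in knockout and 9.93 ± 1.64 CPM in wild-type brains.

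Ptprz1, Ptn and Tnc form a set of surface partners: Ptprz1 is a receptor phosphatase of radial glia, pleiotrophin (Ptn) is its secreted ligand, and tenascin C (Tnc) is a matrix protein that binds it. Ptprz1 was at 420.2, 392 and 438 CPM in knockout and 341, 378 and 380.2 CPM in wild-type brains (log2 fold change 0.18, SE 0.0716, edgeR adjusted p = 0.539). Tnc was at 221, 216 and 267 CPM in knockout and 201, 203 and 200.1 CPM in wild-type brains (log2 fold change 0.22, SE 0.0839, edgeR adjusted p = 0.533). Neither overlapped between groups. For Tnc the difference leaned on knockout replicate 3, without which the log2 fold change was 0.12. Ptn overlapped, with 574 ± 40.9 and 563 ± 35.3 CPM (SD, n = 3), and its log2 fold change of 0.03 was -0.032 with knockout replicate 3 left out and -0.014 with wild-type replicate 3 left out.

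None of the enzyme and carrier genes of radial glia passed the test. Dbi, the acyl-CoA binding protein also called diazepam binding inhibitor, was the lowest in knockout among the non-overlapping genes. It was at 135, 132 and 133 CPM in knockout and 156, 155 and 147 CPM in wild-type brains (log2 fold change -0.20, SE 0.0514, edgeR adjusted p = 0.258), with each knockout value below each wild-type value. Dbi lies on chromosome 1 from 120113280 to 120121078, and its log2 fold change stayed between -0.23 and -0.18 in all 13 alternative settings. Glul, glutamine synthetase, was at 209, 191 and 211 CPM in knockout and 229, 211 and 212 CPM in wild-type brains (log2 fold change -0.10, SE 0.0647, edgeR adjusted p = 0.759), with the highest knockout value just below the lowest wild-type value.

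Ddah1, which breaks down an inhibitor of nitric oxide synthase, was at 169, 150.3 and 168 CPM in knockout and 149, 136 and 143 CPM in wild-type brains (log2 fold change 0.19, SE 0.0661, edgeR adjusted p = 0.483). Its groups did not overlap. Slc1a3, the glutamate transporter of radial glia and astrocytes, had 209 ± 13.5 and 201 ± 14.7 CPM (SD, n = 3, log2 fold change 0.05), and Mfge8, a secreted integrin ligand, 87.5 ± 9.92 and 81.4 ± 2.25 CPM (log2 fold change 0.10). Both overlapped between groups.

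**Figure D2:**
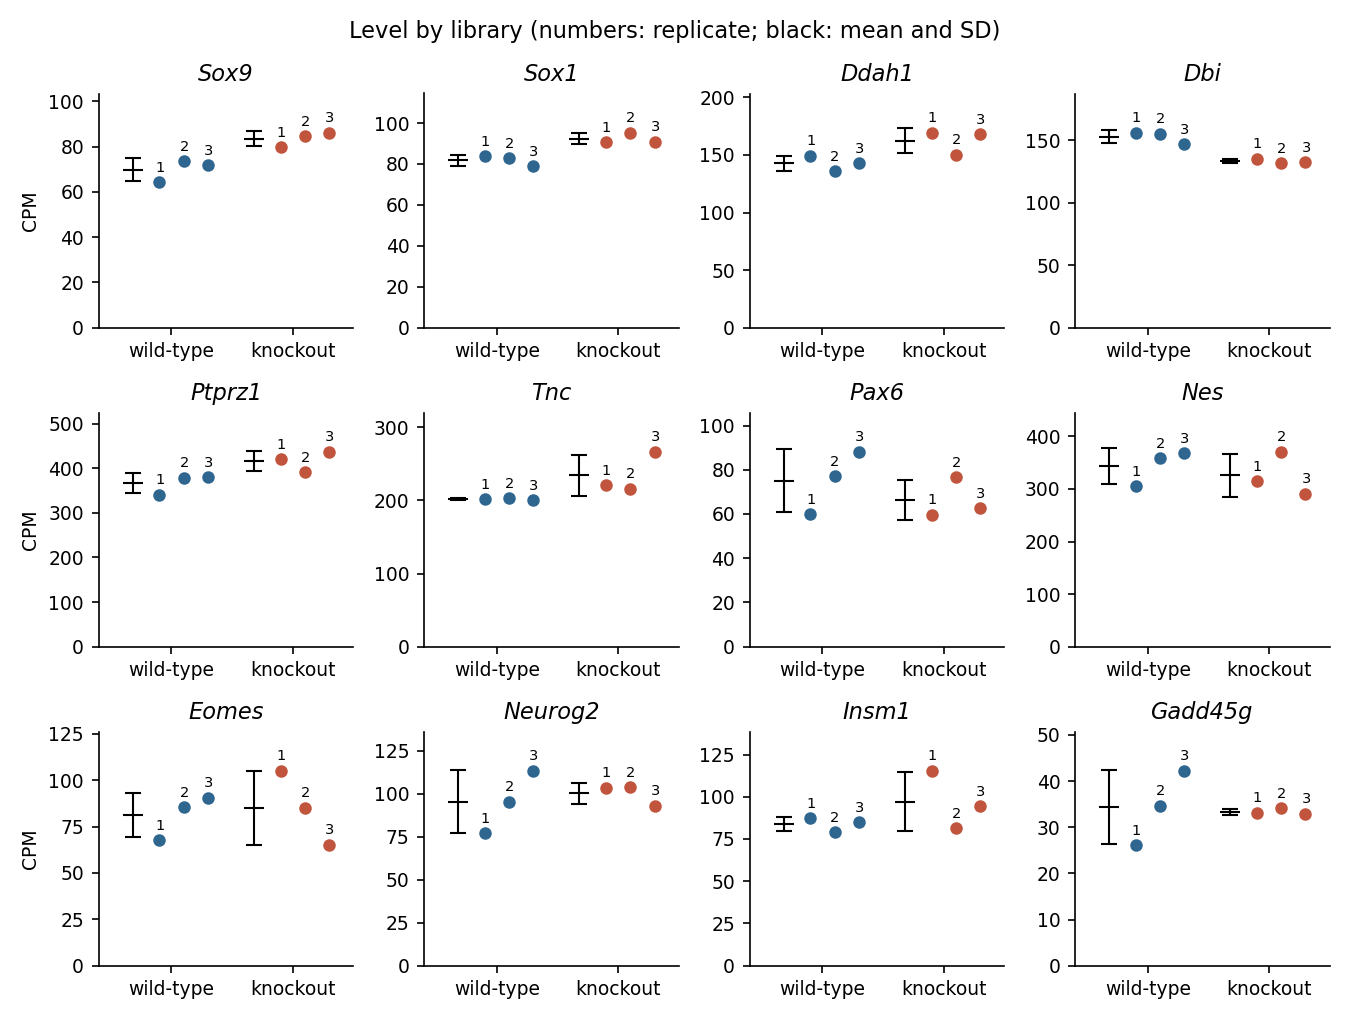
CPM of 12 members in each library, with the group mean and SD (n = 3) in black beside the points and the replicate number above each point. Sox9, Sox1, Ddah1, Dbi, Ptprz1 and Tnc are parted between groups by small margins. Pax6, Nes and the 4 intermediate progenitor genes overlap, with wild-type replicate 1 lowest of the wild-type libraries in each of these except Insm1.

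The intermediate progenitor genes overlapped between groups in 6 of 6 cases. Eomes, the T-box factor that defines these cells, was at 105.2, 85.2 and 65.2 CPM in knockout and 67.6, 85.3 and 90.5 CPM in wild-type brains. The knockout libraries thus held both the highest and the lowest value. Its log2 fold change was 0.07 (SE 0.185, adjusted p = 0.953 in edgeR), and this value became -0.11 with knockout replicate 1 left out, -0.045 with wild-type replicate 1 left out and 0.23 with knockout replicate 3 left out. Neurog2, the proneural bHLH factor that drives cortical neurogenesis, was at 104, 104 and 93.1 CPM in knockout and 77.1, 95.5 and 114 CPM in wild-type brains (log2 fold change 0.07, SE 0.126). The 3 knockout values of Neurog2 lay inside the wild-type range, and the log2 fold change was -0.060 without wild-type replicate 1.

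Insm1, a zinc finger factor that promotes the move of progenitors away from the ventricle, was at 116, 81.5 and 94.6 CPM in knockout and 87.3, 79.1 and 84.8 CPM in wild-type brains. Knockout replicates 1 and 3 were above the wild-type values and knockout replicate 2 lay among them. The log2 fold change, 0.21 (SE 0.115, edgeR adjusted p = 0.696), was 0.07 with knockout replicate 1 left out. Gadd45g, a growth arrest gene switched on in cells that leave the cycle, was at 33.1, 34.1 and 32.9 CPM in knockout and 26.2, 34.7 and 42.3 CPM in wild-type brains, again with the knockout values inside the wild-type range (log2 fold change -0.04, and 0.13 without wild-type replicate 3). The bHLH gene Neurog1 was scarce, with 4.66, 3.80 and 4.05 CPM in knockout and 2.71, 4.38 and 5.29 CPM in wild-type brains. Its log2 fold change of 0.01 was -0.072 with knockout replicate 1 left out and -0.21 with wild-type replicate 1 left out. Neurod4, a further bHLH gene, had 5.09 ± 0.343 and 5.89 ± 1.09 CPM (SD, n = 3, log2 fold change -0.21).

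Set against each other, the classes had similar medians, and which was higher depended on the libraries used. The radial glia median minus the intermediate progenitor median of the log2 fold changes was -0.02. Leaving out wild-type replicate 1 gave 0.16, leaving out knockout replicate 1 gave 0.11, leaving out wild-type replicate 3 gave -0.10, and leaving out both replicates numbered 1 gave 0.27. The difference between the classes was not tested. As a mean of log2(CPM + 0.5) relative to each gene's own mean, the radial glia genes were at -0.02, 0.04 and 0.04 in knockout replicates 1, 2 and 3 and at -0.10, 0.02 and 0.02 in wild-type replicates 1, 2 and 3. The intermediate progenitor genes were at 0.15, -0.01 and -0.09 in knockout and at -0.29, 0.04 and 0.19 in wild-type brains. For both classes the lowest library was wild-type replicate 1, and the knockout and wild-type ranges overlapped. The median ratio of the highest to the lowest library was 1.26 for radial glia genes and 1.54 for intermediate progenitor genes.

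**Figure D3:**
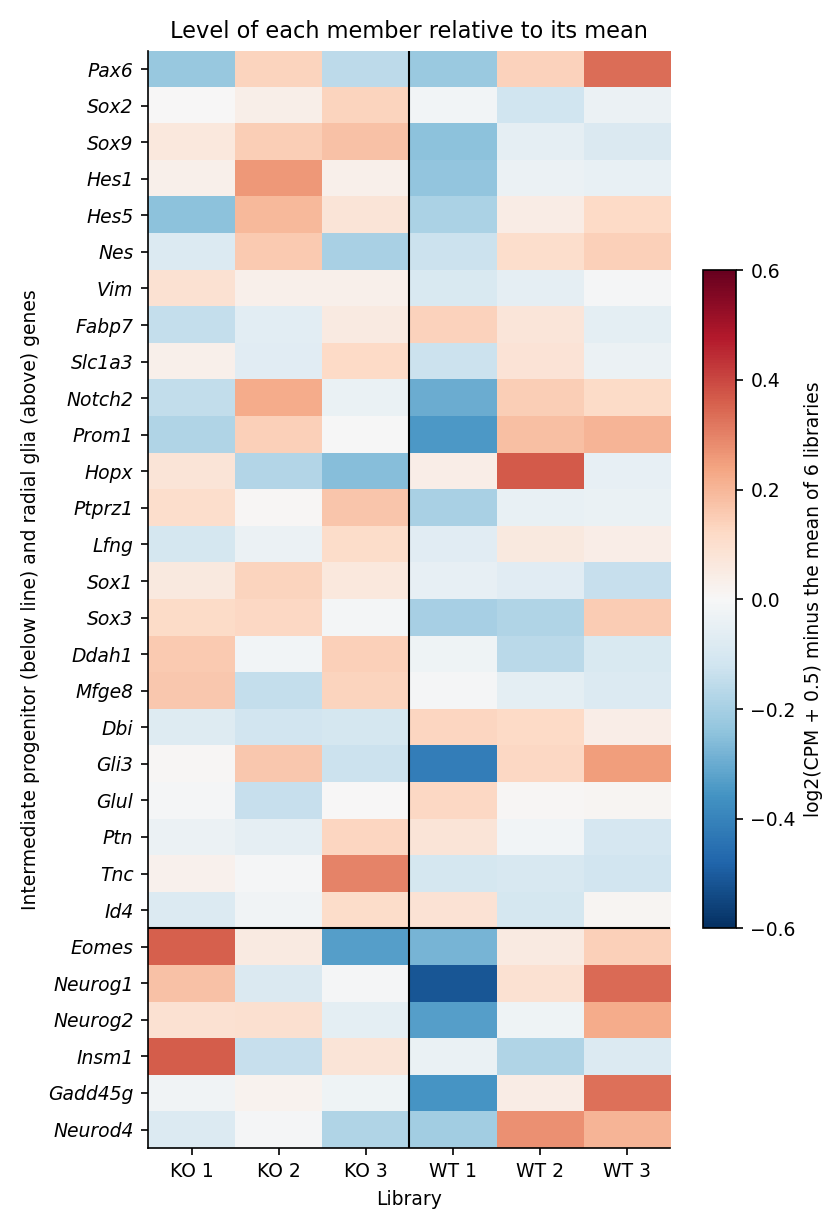
log2(CPM + 0.5) of each member in each library minus its mean over the 6 libraries, with red above and blue below the mean. The vertical line parts knockout from wild-type libraries and the horizontal line radial glia from intermediate progenitor genes. Wild-type replicate 1 has the lowest value of 13 of the 30 members.

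Wild-type replicate 1 was the lowest library for 13 of the 30 members, 9 radial glia and 4 intermediate progenitor genes, where it was the lowest for 20.7% of all tested genes. In 7 members, Pax6, Nes, Notch2, Prom1, Gli3, Gadd45g and Neurod4, knockout replicate 2 and wild-type replicates 2 and 3 were all above the other 3 libraries, an order seen in 16.7% of all tested genes. In 2 members, Mfge8 and Insm1, these 3 libraries were all below the others, as in 15.7% of all tested genes. The same 3 libraries had the high share of embryonic beta-globins, which adult globins replace as fetal blood matures: 23.6%, 23.3% and 26.5% of beta-globin counts against 2.80% to 5.03%. They were also the highest for 10 of 14 dividing cell genes, whose summed level was 1631, 1639 and 1669 CPM in them and 1334 to 1473 CPM in the others. The part of these measures in the members' levels was not tested.

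The forebrain genes also varied among libraries. The 5 forebrain genes Emx1, Emx2, Lhx2, Six3 and Otx1 summed to 297, 290.1 and 256 CPM in knockout and to 247, 265 and 299 CPM in wild-type brains. The 6 midbrain and anterior hindbrain genes summed to 69.0 CPM in knockout replicate 1 and to 102 to 112 CPM in the other libraries. Knockout replicate 1, lowest in the midbrain and hindbrain genes and next to wild-type replicate 3 at the top of the forebrain sum, was highest for Eomes and Insm1. Knockout replicate 3 and wild-type replicate 1, the lowest for Eomes, also had the lowest forebrain sums. Insm1 did not share this order. It was at 94.6 CPM in knockout replicate 3 and 87.3 CPM in wild-type replicate 1. It was lower, at 81.5, 79.1 and 84.8 CPM, in knockout replicate 2, wild-type replicate 2 and wild-type replicate 3. The part of the forebrain sum in these values was not tested.

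**Figure D4:**
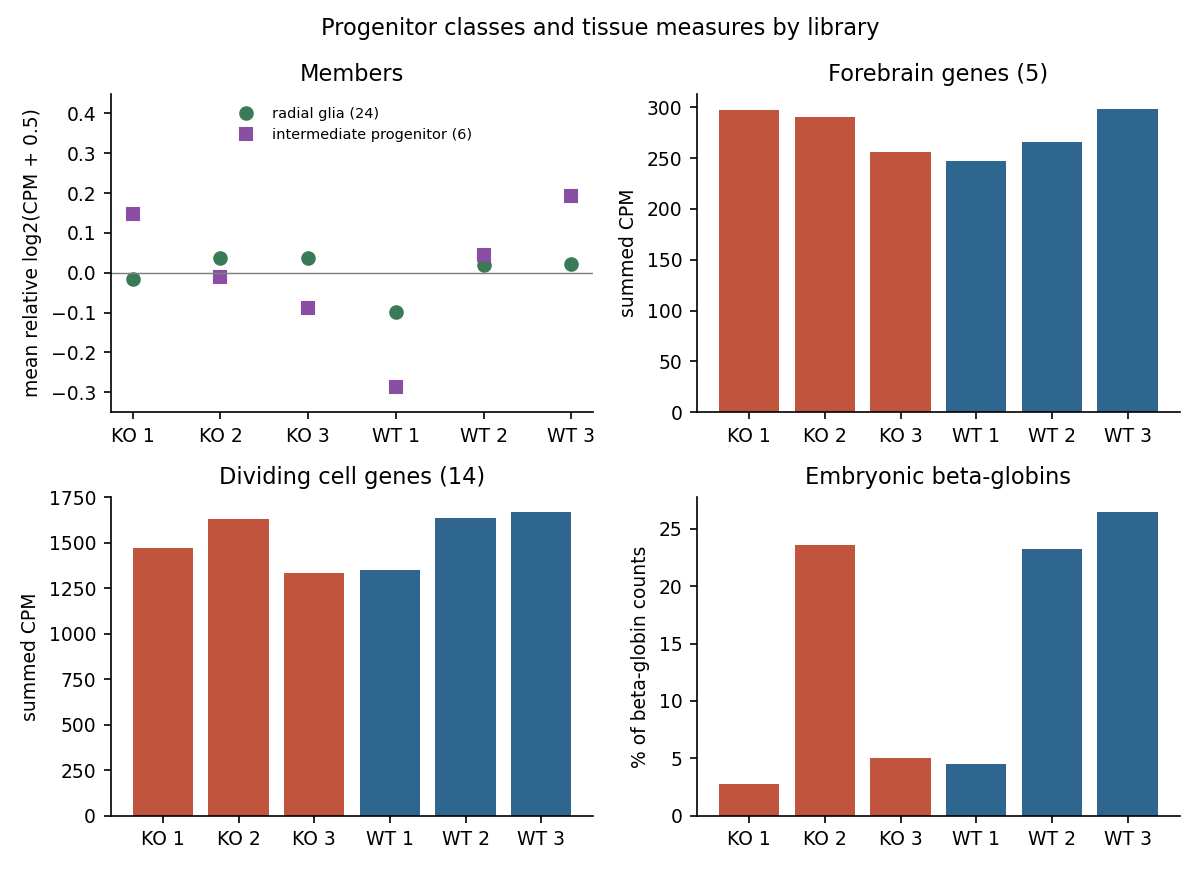
Mean relative log2(CPM + 0.5) of the 2 progenitor classes, summed CPM of 5 forebrain and 14 dividing cell genes, and the embryonic share of beta-globin counts, each by library, with knockout bars red and wild-type bars blue. Intermediate progenitor genes spread from -0.29 to 0.19 across libraries and radial glia genes from -0.10 to 0.04.

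Per kilobase of annotated exon, a scale on which genes can be compared, the members spanned a wide range of wild-type levels. Fabp7 was highest at 468 ± 32.6 CPM per kb, followed by Ptn at 164 ± 10.3, Vim at 133 ± 3.87 and Dbi at 107 ± 3.63 CPM per kb (SD, n = 3). Sox2, at 70.8 ± 2.77 CPM per kb, stood above Sox9, Sox1 and Sox3, which had 16.9, 16.9 and 15.9 CPM per kb and did not differ beyond their spread. Among intermediate progenitor genes Neurog2 was highest at 42.8 ± 8.17 CPM per kb, with Gadd45g at 29.3 ± 6.88, Insm1 at 27.0 ± 1.35 and Eomes at 19.5 ± 2.89 CPM per kb. Neurog1 and Neurod4 were lowest of all members at 2.45 ± 0.776 and 1.76 ± 0.327 CPM per kb. These lengths count every annotated exon, so genes with long alternative exons read low.

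The wider progenitor and neuron lists gave 1 call. Over all genes tested, 0.659% passed the edgeR test and 8.09% had an unadjusted p under 0.05. These shares are to be set beside the counts of each list below. Of 25 other Notch pathway genes, 0 passed the edgeR test and 3 had an unadjusted p under 0.05. They had a median log2 fold change of -0.01. The lowest adjusted p belonged to Hes6, which opposes Hes1 in differentiating cells (log2 fold change -0.17, SE 0.0604, adjusted p = 0.490), and Rfng, a relative of Lfng (-0.16, SE 0.0636, adjusted p = 0.574). Of 28 other ventricular zone genes, 0 passed and 2 had an unadjusted p under 0.05, with a median of 0.05. Nfia (0.23, SE 0.0785, adjusted p = 0.469), a factor of the switch to glia, and the cyclin gene Ccnd1 (0.20, SE 0.0853, adjusted p = 0.589) had the lowest adjusted p.

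Of 18 other subventricular zone and newborn neuron genes, 0 passed and 3 had an unadjusted p under 0.05. The lowest belonged to Cux1 (log2 fold change 0.16, SE 0.0499, edgeR adjusted p = 0.393) and Unc5d (0.22, SE 0.0771, adjusted p = 0.478). The third was Hes6, already counted among the Notch pathway genes above. Mfng and Dll3 are also in both lists. Of 12 postmitotic neuron genes, 0 passed and 2 had an unadjusted p under 0.05. These were the neurofilament genes Nefm (-0.57, SE 0.123, adjusted p = 0.139) and Nefl (-0.43, SE 0.130, adjusted p = 0.374). Of 14 dividing cell genes, 0 passed and 1 had an unadjusted p under 0.05, Pcna (-0.16, SE 0.0582, adjusted p = 0.483). Mcm5 came next (-0.17, SE 0.0800, adjusted p = 0.634). The list had a median of -0.07.

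The call was among 10 genes listed for the ganglionic eminences, the ventral forebrain source of inhibitory neurons. Not all of the 10, such as Lhx6, are confined to progenitors. Their median log2 fold change was 0.16. Dlx2, a homeobox factor of progenitors there, was at 62.1, 54.2 and 54.0 CPM in knockout and 43.3, 40.2 and 38.8 CPM in wild-type brains. Each knockout library was above each wild-type library. Dlx2 rose in knockout, to 56.8 ± 4.61 CPM against 40.8 ± 2.29 CPM (SD, n = 3), by 0.48 on the log2 scale (SE 0.0780, adjusted p = 0.0371 in edgeR). The other 9 did not pass. The call was lost when any 1 of the knockout libraries was left out (adjusted p = 0.137, 0.0808 and 0.169). It was also lost with wild-type replicate 2 (0.222) or wild-type replicate 3 (0.208) left out. The log2 fold change stayed between 0.39 and 0.52 throughout the 13 alternative settings.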

How the data were processed

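Whole-brain RNA of 3 knockout and 3 wild-type libraries, grouped by title, was analysed. The authors deposited raw read counts per gene symbol, per the file headers and values. The submitters' processing notes name the aligner STAR 2.5.2a, featureCounts, DESeq2 1.12.4 and the builds mm10 and hg19, without saying how each was used. The sources used here give no annotation release, strand setting or handling of shared reads. Without strand, Hes5 and Hopx, whose exons overlap opposite-strand genes over 31.8% and 27.2% of their length, cannot be told from those partners, which had at most 11 and 30 counts. The authors' deposited table holds, per the file headers, a normalized mean signal, a log2 fold change with its error, a Wald score, a p-value and an adjusted p-value.

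Genes were kept by filterByExpr, scaled by TMM and tested across all genes with the robust quasi-likelihood test of edgeR 4.0.16 in R 4.3.3, with Benjamini-Hochberg adjustment. Intervals are the log2 fold change ± its error times the t quantile. Both tools were tested on simulated data, where edgeR held its false calls near the threshold and DESeq2 made more false calls than its threshold allows. The simulated counts took their spread from edgeR's own fit and left out the differences in tissue makeup between libraries described above. They cannot show how the tools compare on the real data. DESeq2 1.42.0 was an alternative, as were other size factors, no filter, a replicate block, left-out libraries and a beta-globin term (embryonic share over 10%). Coordinates and exon lengths are from GENCODE M21 (GRCm38, the build also called mm10). The common biological coefficient of variation was 15.3%. The members, lists and alternatives were chosen with earlier results of these data known. All 30 members are named. Values in each library are given for members at an unadjusted p under 0.05, members without overlap and 10 defining genes. Of the wider lists, genes past the FDR or the 2 of lowest p are named. A gene first listed among the forebrain markers is not reported here and was left out of their sum after the values were seen.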

Additional observations from a re-analysis of the deposited data

How the results depend on the processing

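The number of members past the threshold was 0 with DESeq2 size factors, without a low-count filter, in the DESeq2 Wald test, with the replicate block and without any single library. The replicate numbers were not shown to pair the samples: deviations correlated at 0.65, 0.36 and 0.05 for numbers 1, 2 and 3. Only knockout replicate 1 correlated most with the wild-type library of its own number. Knockout replicate 2 correlated more with wild-type replicate 3 (0.54), and knockout replicate 3 more with wild-type replicate 2 (0.15). The lowest adjusted p of a member under the replicate block was 0.0564, for Sox9. The beta-globin term called 1 member higher and gave a radial glia median of 0.10. No member was called lower in any setting. Of the 30 members, 16 kept their sign in all 13 alternatives and 14 did not, and none of the 14 passed the threshold. The causes were not tested.

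Single libraries left out gave log2 ranges of -1.04 to -0.88 for Mfsd7c and -0.10 to 0.16 for the radial glia minus intermediate progenitor median. They gave -0.075 to 0.14 for Hes5, -0.11 to 0.098 for Notch2, -0.20 to 0.052 for Prom1, -0.082 to 0.027 for Lfng, -0.17 to 0.14 for Gli3, -0.032 to 0.076 for Ptn and -0.050 to 0.052 for Id4. For Eomes they gave -0.11 to 0.23, for Neurog1 -0.21 to 0.23, for Neurog2 -0.060 to 0.22 and for Gadd45g -0.20 to 0.13.

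Without both Hox-expressing libraries, which leaves a lone wild-type sample whose spread is taken from the knockout samples, the radial glia median was 0.14, the intermediate progenitor median 0.35 and their difference -0.20. Mfsd7c was then at -0.79. The sign turned for Pax6 at 0.15, Nes at 0.10, Prom1 at 0.34, Lfng at 0.064, Ptn at -0.059, Id4 at -0.080, Gadd45g at 0.36 and Neurod4 at 0.14. Without both epidermal libraries the intermediate progenitor median was -0.21 and the difference 0.27, with Notch2 at -0.033, Gli3 at -0.16, Eomes at -0.22, Neurog1 at -0.30 and Neurog2 at -0.084. With the beta-globin term the sign turned for Nes at 0.012, Prom1 at 0.10, Ptn at -0.012, Id4 at -0.022 and Gadd45g at 0.076.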
